A study of Rattus norvegicus with 7 samples.

Results

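The 43 genes described here act in DNA repair and in the DNA damage checkpoint, and were taken by their gene symbols, with every probe set that the platform annotation gives to that symbol alone. A total of 40 of them had such a probe set, 52 probe sets in all among 31042 that are not array controls. Of these 52, 51 passed the filter that kept the brighter 60% of probe sets, and every one of the 40 genes kept at least 1. The exception was 1 of 3 probe sets of Rad50, with signals of 1.47 to 39.4. Fancg, Fanci and Atm were not analysed here.

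The cells were NRK-52E, a cell line derived from rat kidney epithelium, and mRNA levels were read on Affymetrix expression arrays, where each probe set reports a fluorescence signal. Cells on 2 arrays had received siRNA Adamts16-3488, cells on 2 arrays siRNA Adamts16-2600, and cells on 3 arrays a scrambled control siRNA. The first 2 siRNAs target Adamts16, a secreted metalloprotease gene studied for a link to inherited hypertension, and each array came from a separate culture of the same line. All cultures, controls included, grew in medium with 10% serum, were plated at 20% confluence, received siRNA at 100 pmol per ml with a lipid reagent and were harvested at 48 h.

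Cells repair DNA by several routes. The Fanconi anaemia proteins unhook crosslinks between the strands, and homologous recombination restores a broken chromosome by copying the sister chromatid. Mismatch repair corrects copying errors, base excision repair replaces damaged bases, nucleotide excision repair removes bulky lesions, and end joining rejoins broken ends without a template. The checkpoint kinases sense stalled forks and breaks and hold the cell cycle. In dividing cells many of the recombination, Fanconi and mismatch repair genes are transcribed most in S phase, as the replication genes are.

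The siRNA strands are shown because a guide strand can pair through bases 2 to 8 with transcripts other than its target. Capitals mark those bases in each antisense strand, written 5′ to 3′ without the dTdT overhangs. No search for matches in transcripts was made.
siRNA 3488 antisense: tTTCCGGAgacgtacttct
siRNA 2600 antisense: tTGCGCACagaaatatagg
scrambled control antisense: aTTACCGAgcacattggagg
The bases in capitals differ among all 3 strands, and the siRNAs against Adamts16 are 19 bases long against 20 for the scrambled control.

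Some facts of the arrays bear on what follows. The probe set of Adamts16 read 12.1 and 40.4 in siRNA 3488 cells, 21.4 and 2.42 in siRNA 2600 cells and 8.68, 7.18 and 18.9 in control cells. All these values are below the filter level of 68.2, so the knockdown of Adamts16 could not be checked on these arrays. Array 1 of siRNA 2600 lay among the controls on the first principal component (17.7, with its partner at -6.72, siRNA 3488 arrays at -22.3 and -37.2, and controls at 11.4 to 20.1). The 3′ to 5′ signal ratio of beta-actin, a measure of RNA integrity and labelling, was 1.96 and 1.94 in siRNA 3488, 1.83 and 1.81 in siRNA 2600 and 1.74 to 1.79 in control arrays. Of 17 epithelial markers 5 passed the filter, with Krt8 at 5698 to 7147 but E-cadherin (Cdh1) at 1.95 to 9.67. The summed signal over the list, most of it from Krt8, was 7842 to 8339 in siRNA 3488, 7091 to 7168 in siRNA 2600 and 6713 to 7334 in control arrays. Of 12 fibroblast markers 7 passed, and their summed signal over the list was 53054 to 60208.5 in siRNA 3488, 45371 to 48069 in siRNA 2600 and 42779 to 44647 in control arrays. The largest terms were Col3a1 (24439 and 28463 in siRNA 3488, 19051 to 19931 in control arrays) and Vim (14069 and 16387.5, against 10947 to 11322). With siRNA 3488, 6 of the 7 had a higher mean log2 signal than in control cells, and Postn had a lower one. Of 9 leukocyte and endothelial markers on the array 2 passed, with a summed signal of 775 to 787, 629 to 658 and 582 to 688 in the same order. The part of these values in the results below was not tested.

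With siRNA 3488, 6 of the 51 member probe sets passed limma's test (adjusted p under 0.05, adjusted over all 18625 probe sets tested), which is 11.8%, against 15.6% of all probe sets. Fancd2, Brca2, Exo1 and Rad21 rose (4 probe sets, against 6.89% of all), and Msh6 and Lig4 fell (2 probe sets, against 8.74% of all). The member genes thus passed no more often than probe sets at large, although their median log2 change was 0.07 and that of all probe sets -0.06. Over all probe sets 1283 rose and 1628 fell, and with arrays centred on their median 1728 rose and 576 fell; the member count was then still 6, with Fancl and Ddb1 higher in the place of Msh6 and Lig4. The 6 became 1 without array 2 of siRNA 3488 or without control array 1, 2 without array 1 of siRNA 3488, control array 2 or control array 3, and 9 without either siRNA 2600 array.

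With siRNA 2600, 2 member probe sets passed, Fancd2 higher and Apex2 lower, which is 3.92% of 51, against 1.03% of all probe sets (0.548% higher and 0.483% lower). Over all probe sets 102 rose and 90 fell, and 160 rose and 45 fell with arrays centred on their median. The median log2 change was 0.03 over the members and -0.02 over all probe sets. Leaving out any 1 of the 7 arrays left Apex2 as the sole member called. Fancd2 was therefore called in both siRNA groups, but the comparisons share the 3 control arrays.

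Tested against each other, the siRNAs differed in Apex2 (higher with siRNA 3488) and Xrcc6 (lower with siRNA 3488), 2 of 51 member probe sets, against 6.01% of all probe sets (2.84% higher and 3.17% lower). When the 4 siRNA arrays were pooled against the 3 controls, Fancd2 was the sole member called, against 0.145% of all probe sets (0.102% higher and 0.043% lower). Over all probe sets 19 rose and 8 fell in that pooled comparison, and 62 rose and 4 fell with arrays centred on their median. Without array 1 of siRNA 2600, whose position is given above, 1304 probe sets and 3 members (Apex1, Fancd2 and Fancl) were called there. Leaving out any other 1 array left 0 members and at most 1 probe set called, so the pooled Fancd2 call was lost.

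With so few arrays, groups often fail to overlap. With siRNA 3488 the siRNA and control arrays did not overlap in 33 of the 51 member probe sets (20 higher, 13 lower), against 50.3% of all probe sets (19.2% higher, 31.1% lower). With siRNA 2600 they did not overlap in 21 (14 higher, 7 lower), against 34% (14.4% higher, 19.6% lower). Between the siRNAs 27 did not overlap (15 higher with siRNA 3488, 12 lower), against 49.6% (21.9% higher, 27.7% lower). All 4 siRNA arrays lay outside the range of the 3 controls in 11 (7 higher, 4 lower), against 17.7% (6.66% higher, 11% lower). In bulk RNA, a change in the number of cells of a type or in S phase and a change in RNA per cell cannot be told apart.

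**Figure D1:**
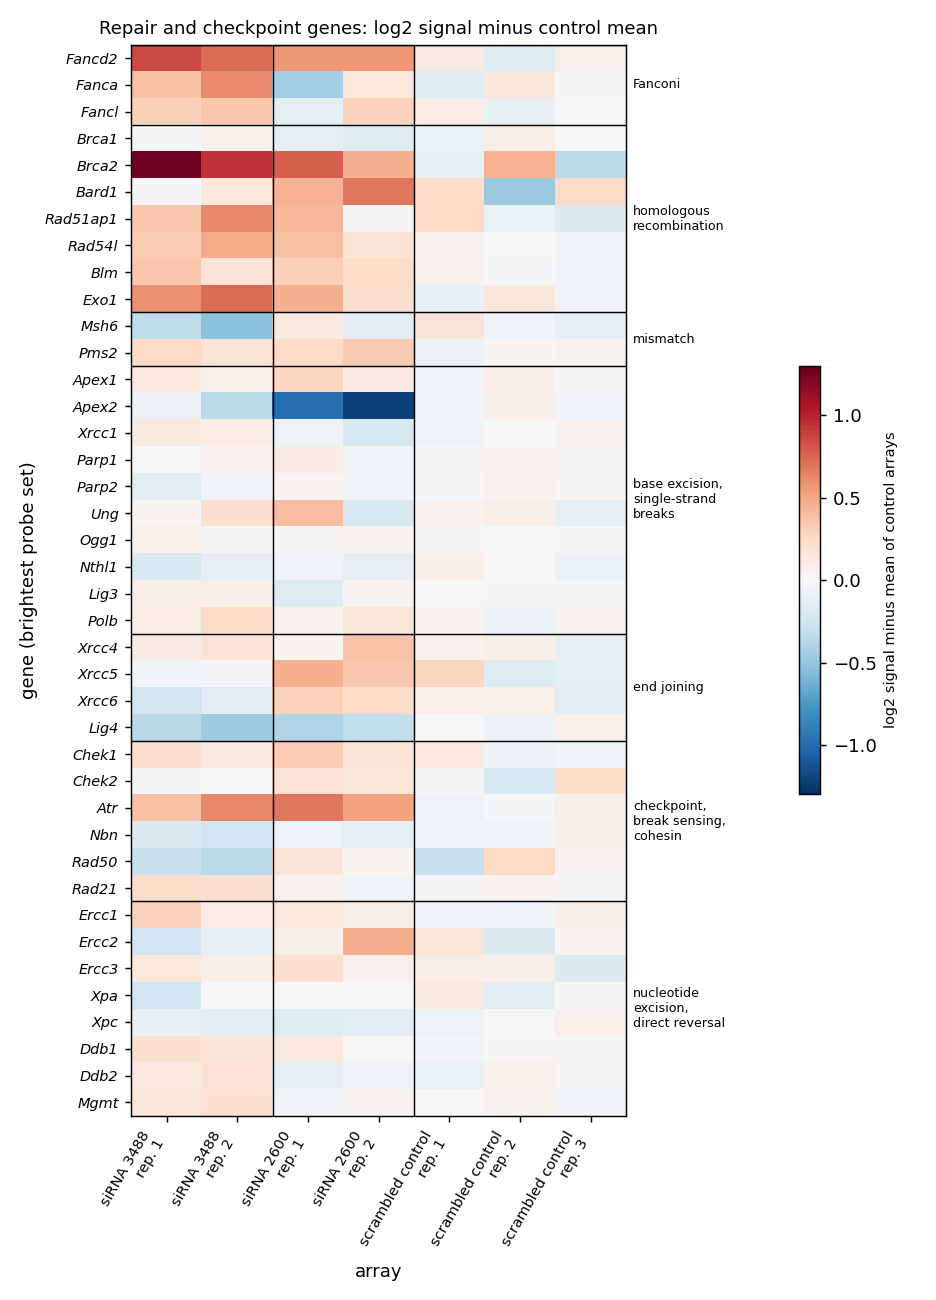
Heat map of the log2 signal of each member gene's brightest probe set in each of the 7 arrays, minus the mean of the 3 scrambled control arrays, with genes in rows by repair route and arrays in columns by siRNA. Fancd2, Brca2 and Exo1 are above the control mean in all 4 siRNA arrays, and Apex2 stands out as low in the 2 siRNA 2600 arrays.

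Of the Fanconi anaemia genes, Fancd2 rose with both siRNAs. Fancd2 encodes the protein that is ubiquitinated at stalled forks and so starts crosslink repair. Its signal was 862 and 783 in siRNA 3488 cells and 703 and 701 in siRNA 2600 cells, against 512, 423 and 496 in control cells. All 4 siRNA arrays lay above all 3 controls. The log2 change was 0.79 ± 0.11 (SE, adjusted p = 0.00312) with siRNA 3488, a 1.73-fold higher signal, and 0.56 ± 0.11 (adjusted p = 0.0382) with siRNA 2600, a 1.48-fold higher signal. The siRNAs differed by 0.23 in log2 change (95% interval -0.03 to 0.48, adjusted p = 0.263). With siRNA 3488 the call held without any 1 array and under all 10 other settings. With siRNA 2600 it was lost without any 1 of the 7 arrays (adjusted p 0.0525 to 0.138). Pooled over the siRNAs the change was 0.68 ± 0.11 (adjusted p = 0.0478), with adjusted p up to 0.309 on leaving out 1 array and 0.00796 without array 1 of siRNA 2600.

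Fancl, the ubiquitin ligase that acts on Fancd2, and Fanca, a part of the same core complex, did not pass the test. Fancl read 982 and 1017 in siRNA 3488 cells and 732 and 977 in siRNA 2600 cells, against 845, 741 and 796 in control cells (log2 changes of 0.33 and 0.09, adjusted p = 0.0816 and 0.763). Fanca read 144 and 169 in siRNA 3488 cells and 81.3 and 121 in siRNA 2600 cells, against 98.6, 122 and 112 in control cells (0.50 and -0.15, adjusted p = 0.184 and 0.816). In both genes the siRNA 3488 arrays lay above all controls, and array 1 of siRNA 2600 lay below all controls.

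All 7 homologous recombination genes had a higher mean with siRNA 3488 than in control cells, and 2 passed the test. Over the 10019 genes with a tested probe set, also counted by the brightest one, 4649 had a higher mean and 933 were called higher. Brca1 and Bard1 were among the 7 with changes of 0.03 and 0.05 only. With siRNA 2600, 6 of the 7 had a higher mean and limma called 0, with 2 at an unadjusted p below 0.05. Of the 10019 genes, 5252 had a higher mean there. The medians over the 7 genes were 0.40 and 0.28 in log2 change, against medians over the 10019 genes of -0.02 and 0.01. The 7 were chosen with earlier results of these data known. Among 21 other Fanconi and recombination genes, part of the further repair genes below, the medians were 0.08 and 0.15. With siRNA 3488, 14 of the 21 had a higher mean, 3 were called higher and 1 lower. With siRNA 2600, 16 had a higher mean and 1 was called higher. The medians of the 7 therefore do not stand for recombination genes at large.

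Brca2, a breast cancer susceptibility gene that serves recombination, read 256 and 205 in siRNA 3488 cells and 184 and 147 in siRNA 2600 cells, against 99.8, 146 and 83.9 in control cells. The siRNA arrays all lay above the controls, the nearest pair being 147 and 146. It rose by 1.10 ± 0.25 with siRNA 3488 (2.14-fold, adjusted p = 0.0182), and its change with siRNA 2600 was 0.62 (adjusted p = 0.279). The rise with siRNA 3488 was not called without the intensity trend in limma's variance model (adjusted p = 0.0587). The call with siRNA 3488 was lost without array 1 or 2 of siRNA 3488 or control array 1 or 3 (adjusted p up to 0.0945).

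Exo1, an exonuclease that resects broken ends and also serves mismatch repair, read 223 and 245 in siRNA 3488 cells and 203 and 171 in siRNA 2600 cells, against 138, 164 and 143 in control cells. Again no siRNA array overlapped the controls. It rose by 0.66 ± 0.17 with siRNA 3488 (1.58-fold, adjusted p = 0.0284), and its change was 0.34 with siRNA 2600 (adjusted p = 0.395). The rise with siRNA 3488 was not called by limma with no filter or with the replicate block (adjusted p up to 0.0703). The first call was lost without either siRNA 3488 array or any 1 control array (adjusted p up to 0.161).

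Of the remaining recombination genes, Rad51ap1 (a recombination cofactor), Rad54l (a DNA translocase) and Blm (a helicase that dissolves joint molecules) had log2 changes of 0.49, 0.40 and 0.27 with siRNA 3488 and of 0.22, 0.28 and 0.27 with siRNA 2600. Rad54l and Blm did not overlap the controls in any siRNA array, and the adjusted p over these 6 values ran from 0.0718 to 0.616. Bard1, the partner of Brca1, read 96.2 and 108 in siRNA 3488 cells and 134 and 159 in siRNA 2600 cells, against 115, 70.3 and 116 in control cells, so that the higher values were those of siRNA 2600 (difference between the siRNAs -0.52, adjusted p = 0.313). Brca1, which promotes end resection, read 154 and 164 in siRNA 3488 cells and 143 and 140.2 in siRNA 2600 cells, against 147, 165 and 156 in control cells. Its log2 changes were 0.03 and -0.14, with 95% intervals of -0.35 to 0.41 and -0.52 to 0.24.

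**Figure D2:**
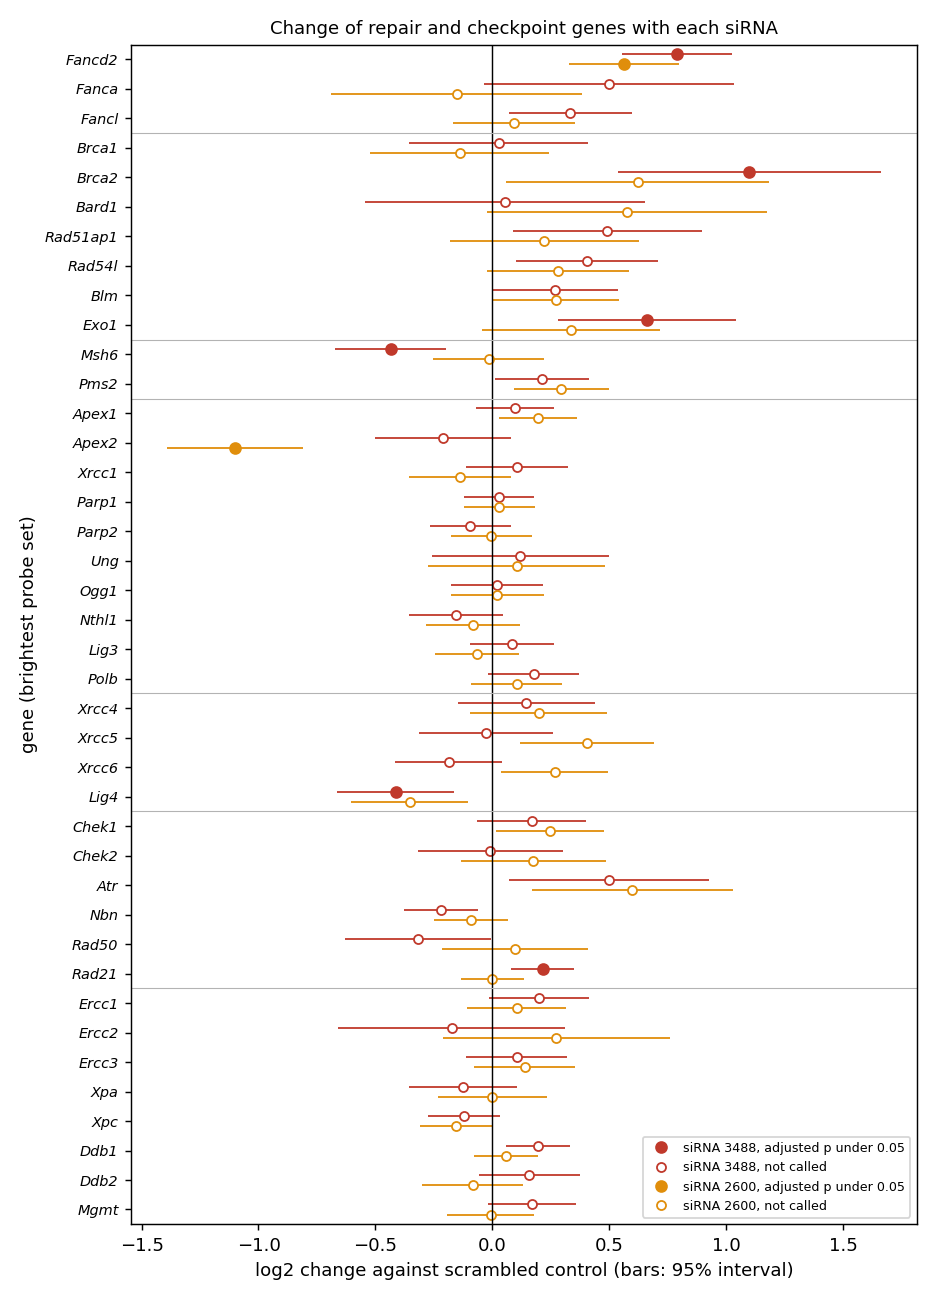
Log2 change of each member gene's brightest probe set against scrambled control with siRNA 3488 and with siRNA 2600, with 95% intervals from limma, grouped by repair route; filled points are called at an adjusted p under 0.05. The homologous recombination and Fanconi genes lie mostly right of 0 with siRNA 3488, and Apex2 with siRNA 2600 is the farthest point left of 0.

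Promoters are shown for the genes that rose most with siRNA 3488 (Fancd2, Brca2 and Exo1) and for Msh6, which fell. They run from 250 bases before to 50 after the annotated start in RefSeq on build GRCr8, 5′ to 3′ on the gene's strand. Capitals mark a match to the E2F words TTTCCCGC, TTTCGCGC, TTTGCCGC or TTTGGCGC, searched on both strands; E2F factors drive S phase transcription.
Fancd2 (chr4:148234458-148234757, plus strand): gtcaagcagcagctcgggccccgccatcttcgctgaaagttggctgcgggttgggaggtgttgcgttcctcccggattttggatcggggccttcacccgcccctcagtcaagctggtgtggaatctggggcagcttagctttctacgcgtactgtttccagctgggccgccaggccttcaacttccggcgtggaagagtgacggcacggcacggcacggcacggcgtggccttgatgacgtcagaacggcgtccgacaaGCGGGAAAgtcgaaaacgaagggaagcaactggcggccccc
Brca2 (chr12:4895197-4895496, plus strand): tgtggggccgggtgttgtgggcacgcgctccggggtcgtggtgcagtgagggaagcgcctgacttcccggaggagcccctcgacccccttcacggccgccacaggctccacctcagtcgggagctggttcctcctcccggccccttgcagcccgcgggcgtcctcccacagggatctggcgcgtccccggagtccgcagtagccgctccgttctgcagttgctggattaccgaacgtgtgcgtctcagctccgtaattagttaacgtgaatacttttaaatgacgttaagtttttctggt
Exo1 (chr13:90341768-90342067, plus strand): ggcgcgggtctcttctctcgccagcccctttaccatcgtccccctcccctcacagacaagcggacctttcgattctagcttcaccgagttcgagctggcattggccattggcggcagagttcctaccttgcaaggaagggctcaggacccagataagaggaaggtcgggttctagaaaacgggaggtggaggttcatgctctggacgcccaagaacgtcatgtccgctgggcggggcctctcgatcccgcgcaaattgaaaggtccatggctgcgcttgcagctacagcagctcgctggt
Msh6 (chr6:12333456-12333755, minus strand): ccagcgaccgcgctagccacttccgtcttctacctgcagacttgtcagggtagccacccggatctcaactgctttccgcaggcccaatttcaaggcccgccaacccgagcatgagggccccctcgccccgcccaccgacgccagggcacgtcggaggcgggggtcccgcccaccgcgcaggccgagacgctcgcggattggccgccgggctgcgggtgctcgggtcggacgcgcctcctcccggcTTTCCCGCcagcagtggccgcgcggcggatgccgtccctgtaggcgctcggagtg
Fancd2 has GCGGGAAA, the reverse complement of TTTCCCGC, with its first base 10 bases after the start, and Msh6 has TTTCCCGC from 5 bases before the start. Of the 32 member genes with a promoter in the table, 7 (Bard1, Chek1, Fancd2, Fancl, Msh6, Nthl1 and Ung) held one of these words, 21.9%, against 2.14% of all 33469 promoters. Members were counted by gene, while the shares of all were counted by promoter, whether or not the gene was tested on these arrays. The 2 shares are therefore not of like sets. The 7 included Fancd2, which rose, Msh6, which fell, and 5 genes that did not pass the test in any comparison. CCAAT was in 14 of the 32 member promoters and 37.5% of all, and TTTGAA, a cell cycle homology element, in 4 of the 32 and 18.3% of all.

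In mismatch repair, Msh6 fell with siRNA 3488. Msh6 serves in the recognition of base mismatches. Its signal was 2065 and 1799 in siRNA 3488 cells and 2821 and 2354 in siRNA 2600 cells, against 2925, 2517 and 2401 in control cells. The siRNA 3488 arrays lay below all others, while those of siRNA 2600 overlapped the controls. It fell by 0.43 ± 0.11 on the log2 scale (adjusted p = 0.0232) with siRNA 3488, and its change was -0.02 (adjusted p = 0.963) with siRNA 2600. The difference between the siRNAs was -0.42 (adjusted p = 0.0626). The fall with siRNA 3488 was not called without the intensity trend in the variance model. The call was lost with arrays centred on their median (-0.34, adjusted p = 0.0831) and without array 2 of siRNA 3488, control array 1 or control array 2 (adjusted p up to 0.179).

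Pms2, part of the nuclease that acts after mismatch recognition, read 643 and 606 in siRNA 3488 cells and 639 and 683 in siRNA 2600 cells, against 512, 548 and 557 in control cells. All siRNA arrays were above all controls, with log2 changes of 0.21 (adjusted p = 0.139) and 0.30 (adjusted p = 0.160), neither past the threshold. The 2 mismatch repair genes thus had changes of opposite sign with siRNA 3488.

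In base excision and single-strand break repair, Apex2 fell with siRNA 2600 and differed between the siRNAs. Apex2 encodes a nuclease that trims blocked 3′ ends at single-strand breaks. It read 435 and 359 in siRNA 3488 cells and 231 and 197 in siRNA 2600 cells, against 446, 483 and 444 in control cells. The siRNA 2600 arrays were the lowest of the 7, and the siRNA 3488 arrays also lay below the controls. With siRNA 2600 the log2 change was -1.10 ± 0.13 (adjusted p = 0.00659), 0.466 of the control signal (95% interval 0.381 to 0.571), and with siRNA 3488 it was -0.21 (adjusted p = 0.302). The difference, siRNA 3488 minus siRNA 2600, was 0.89 ± 0.14 (adjusted p = 0.0134). Both calls held without any 1 of the 7 arrays (adjusted p up to 0.0479 and 0.0429). Without the intensity trend in the variance model, adjusted p was 0.0814 and 0.0652, and with the compared groups alone the difference had an adjusted p of 0.0941.

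None of the other 9 genes of this route passed the test. Parp1, the enzyme that marks strand breaks with poly(ADP-ribose), read 2349 and 2441 in siRNA 3488 cells and 2532 and 2268 in siRNA 2600 cells, against 2328, 2406 and 2309 in control cells, with log2 changes of 0.03 and 0.03 (95% intervals both -0.12 to 0.18). Ogg1, which removes oxidised guanine, had changes of 0.02 and 0.02. Apex1, the main abasic site nuclease, is read by 2 probe sets, neither called: the brighter gave 0.10 and 0.19 and the dimmer 1.16 and 0.31 (adjusted p = 0.130 and 0.815). The dimmer read 143 and 129.6 in siRNA 3488 cells, 37.0 and 153 in siRNA 2600 cells and 69.3, 54.8 and 58.7 in control cells. The siRNA 2600 arrays of that dimmer probe set lay on either side of the controls, and the values of 37.0, 54.8 and 58.7 are below the filter level. Xrcc1 (a scaffold), Parp2, Ung (which removes uracil), Nthl1, Lig3 and Polb had brightest-probe-set changes between -0.16 and 0.18 with siRNA 3488 and between -0.14 and 0.10 with siRNA 2600. Dimmer probe sets gave -0.10 and -0.31 (Nthl1), -0.21 and 0.01 (Lig3) and -0.03 and -0.10 (Polb) with siRNA 3488 and siRNA 2600. None of these was called, and those of Lig3 and Polb were opposite in sign to the brighter ones.

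In non-homologous end joining, Lig4, the ligase that seals the ends, fell with siRNA 3488. Its brighter probe set read 320.3 and 298 in siRNA 3488 cells and 313 and 331 in siRNA 2600 cells, against 412, 391 and 432 in control cells. All 4 siRNA arrays lay below all 3 controls. It fell by 0.41 ± 0.11 with siRNA 3488 (adjusted p = 0.0346), and the change was -0.35 with siRNA 2600 (adjusted p = 0.173) and -0.38 pooled (adjusted p = 0.126). The dimmer probe set of Lig4 gave -0.43 and -0.23, neither past the threshold (lowest adjusted p = 0.137). The siRNA 3488 call of the brighter one held under 4 of 10 other settings. The call was lost without either siRNA 3488 array or any 1 control array (adjusted p up to 0.175), and with quantile, loess or median scaling.

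Of the Ku subunits Xrcc5 and Xrcc6, which bind broken ends as a dimer, Xrcc6 was lower with siRNA 3488 than with siRNA 2600. Xrcc6 read 444 and 474 in siRNA 3488 cells and 642 and 615 in siRNA 2600 cells, against 548, 548 and 474 in control cells. The siRNA 2600 arrays lay above all others, and the siRNA 3488 arrays below all controls. The difference between the siRNAs was -0.45 ± 0.11 (adjusted p = 0.0440), a call lost without any 1 of the 7 arrays (adjusted p 0.0559 to 0.174). That call held under 4 of 10 other settings. Neither change against control passed, at -0.19 (adjusted p = 0.242) and 0.27 (adjusted p = 0.256). Xrcc5 read 605 and 612 in siRNA 3488 cells and 854 and 789 in siRNA 2600 cells, against 754, 552 and 573 in control cells, with a difference between the siRNAs of -0.43 (adjusted p = 0.0999) that did not pass. The dimmer probe set of Xrcc5 gave a difference of 0.03 (adjusted p = 0.954), of the opposite sign. Xrcc4, the cofactor of Lig4, had changes of 0.15 and 0.20 on its brighter probe set and of -0.07 and -0.10 on its dimmer one, with none past the threshold.

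**Figure D3:**
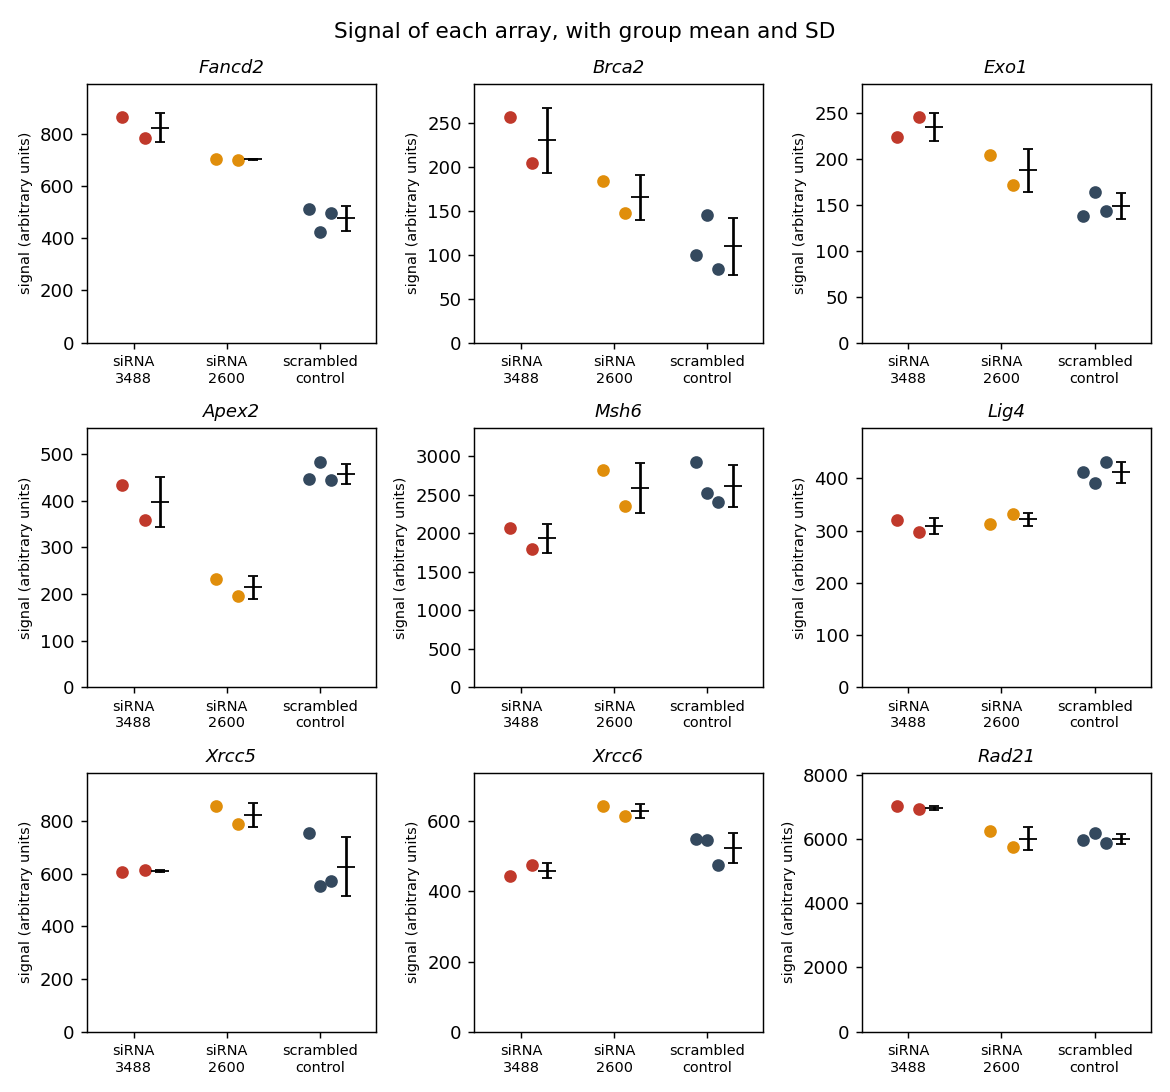
Signal of the member probe sets the results turn on, 1 panel per gene, with each array as a point and the group mean as a black line with SD whiskers, for siRNA 3488, siRNA 2600 and scrambled control from left to right on linear axes that start at 0. Fancd2, Brca2 and Exo1 are higher in siRNA 3488 than in control cells, and Apex2 is lowest in siRNA 2600 cells.

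Among the checkpoint, break sensing and cohesin genes, Rad21, a cohesin subunit that holds sister chromatids together, passed the test with siRNA 3488. It read 7011 and 6918 in siRNA 3488 cells and 6254 and 5756 in siRNA 2600 cells, against 5951, 6170.5 and 5882 in control cells. The siRNA 3488 arrays were the highest, and the others overlapped. The change of 0.21 ± 0.06 (adjusted p = 0.0399) was the smallest among the called members, and with quantile normalization it was 0.00 (adjusted p = 0.992). Its call held under 5 of 10 other settings. The call was also lost without either siRNA 3488 array or any 1 control array (adjusted p up to 0.122).

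Atr, the kinase that responds to single-stranded DNA at stalled forks, read 141 and 167 in siRNA 3488 cells and 174 and 155 in siRNA 2600 cells, against 104, 107 and 115 in control cells. All siRNA arrays lay above all controls, but neither change of 0.50 (adjusted p = 0.106) and 0.60 (adjusted p = 0.176) nor the pooled 0.55 (adjusted p = 0.148) passed. Chek1, the kinase downstream of Atr, read 595 and 554 in siRNA 3488 cells and 641 and 573 in siRNA 2600 cells, against 558, 483 and 494 in control cells, with changes of 0.17 and 0.25 that did not pass. Chek2, the kinase downstream of Atm, read 318 and 321 in siRNA 3488 cells and 366 and 359.6 in siRNA 2600 cells, against 317, 279 and 376 in control cells, so that all 4 siRNA arrays lay within the range of the controls. Nbn and Rad50, which with Mre11 sense breaks, had changes of -0.22 and -0.32 with siRNA 3488 and -0.09 and 0.10 with siRNA 2600 (adjusted p 0.0651 to 0.800).

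None of the 8 nucleotide excision repair and direct reversal genes passed limma's test in any of the 4 comparisons, and at most 1 in a comparison had an unadjusted p below 0.05. Ercc1, a nuclease subunit, Ercc2 and Ercc3, the helicases of TFIIH, Xpa and Xpc, which verify and recognise lesions, Ddb1 and Ddb2, which bind ultraviolet damage, and Mgmt, which reverses alkylated guanine, had brightest-probe-set changes from -0.17 to 0.20 with siRNA 3488 and from -0.16 to 0.27 with siRNA 2600. Ddb1 had the lowest adjusted p of these with siRNA 3488: its brightest probe set read 6471 and 6352 in siRNA 3488 cells and 6109 and 5577 in siRNA 2600 cells, against 5481, 5679 and 5649 in control cells (change 0.19, adjusted p = 0.0574). A second bright probe set of Ddb1 gave -0.15. These probe sets disagreed in sign. So did the brighter and dimmer probe sets of Ddb2, at 0.16 and -0.22 with siRNA 3488 and -0.08 and 0.08 with siRNA 2600.

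A further 105 symbols of repair genes outside the 43 were listed, including alternative names of the same gene. Under these symbols 72 genes had a probe set that passed the filter. With siRNA 3488, 6 of the 72 rose and 3 fell, with a median log2 change of 0.04. Over the 10019 genes with a tested probe set, 933 rose and 761 fell. Fancb (Fanconi core complex, 0.68), Recql (a helicase, 0.34), Rpa3 (a subunit of the single strand binding protein, 0.35), Pcna (the replication clamp, 0.63), Timeless (0.70) and Tipin (0.83), which together protect forks, rose. Rmi1, a partner of Blm (-0.61), Brcc3 (-0.82) and Ercc6, of transcription-coupled repair (-0.39), fell. With siRNA 2600, 1 rose, Ube2t (the conjugating enzyme that serves Fancl, 0.70, adjusted p = 0.0190), and 1 fell, Babam1 (-0.63, adjusted p = 0.00545), and the median was 0.07. Over the 10019 genes 73 rose and 37 fell there. The Ube2t call was lost without array 1 of siRNA 2600 or any 1 control array (adjusted p up to 0.0861). In the difference 1 of the 72 was higher with siRNA 3488 (Babam1) and 3 were lower (Rmi1, Pms1 and Brcc3), against 354 and 343 of the 10019 genes. The Rmi1 difference was lost without any 1 of 6 arrays (adjusted p up to 0.214). In the pooled comparison limma called 0 of the 72, with 16 at an unadjusted p below 0.05, and over the 10019 genes 18 rose and 2 fell. The calls of Rmi1, Pcna and Brcc3 with siRNA 3488 and of Babam1 with siRNA 2600 held without any 1 array. With siRNA 3488, Ercc6 and Tipin were lost without either siRNA 3488 array or any 1 control array (adjusted p up to 0.212 and 0.222), and Timeless and Rpa3 without array 2 of siRNA 3488 or any 1 control array (up to 0.318 and 0.163). Ercc6 was also lost under 7 of 10 other settings, and Timeless and Tipin under 3 of 9 (no filter, no intensity trend and the replicate block). Recql was lost without either siRNA 3488 array or control array 1 (up to 0.0924), Recql and Rpa3 without the intensity trend, and Fancb without array 2 of siRNA 3488 (0.0610).

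The cell cycle markers were measured beside the repair genes because many repair genes follow S phase. The list also holds genes of mitosis, among them Kif20a, Plk1 and Ccnb1, so its medians do not measure S phase alone. Of 26 tested, 20 rose with siRNA 3488 (median 0.54), among them Kif20a (1.07), Mki67 (0.75), Ccnb2 (0.61) and Top2a (0.80), and 6 with siRNA 2600 (median 0.32), among them Kif20a (0.79), Mki67 (0.47), Ccnb1 (0.42) and Plk1 (0.55). None was called lower. Over the 10019 genes with a tested probe set, 933 rose with siRNA 3488 and 73 with siRNA 2600. With siRNA 2600, 23 of the 26 markers had a higher mean, and 2 lay below all controls. Cdc20 read 1210 and 1452 there, against 1603, 1533 and 1844 in control cells. E2f1 read 176 and 174, against 188, 241 and 194 in control cells. The mean level of the 26 markers relative to control was 0.52 and 0.58 in the siRNA 3488 arrays and 0.29 and 0.30 in the siRNA 2600 arrays. That of the 7 recombination genes was 0.41 and 0.45, and 0.38 and 0.24, with controls of both between -0.06 and 0.04. The part of the cell cycle markers in the repair gene changes was not tested. Of 14 p53 target genes tested, 0 rose and 1 (Plk2, -0.52) fell with siRNA 3488 and limma called 0 with siRNA 2600 (3 at an unadjusted p below 0.05), with medians of -0.05 and 0.04.

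**Figure D4:**
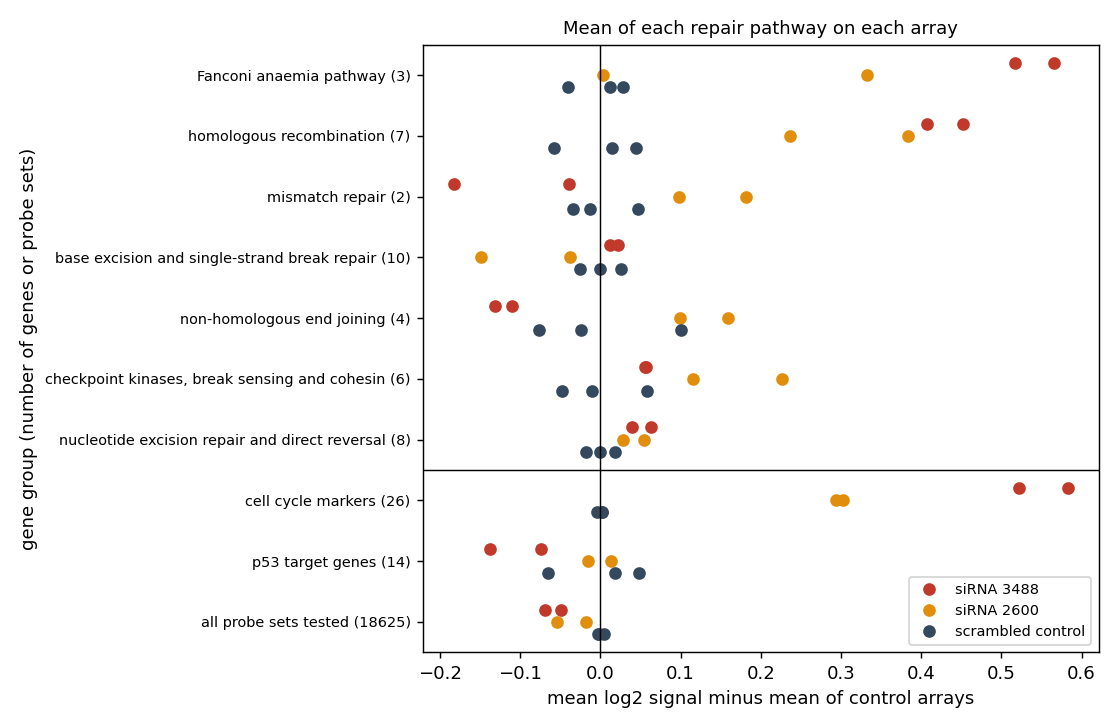
Mean log2 signal relative to the scrambled control mean in each of the 7 arrays, for the genes of each repair route and for cell cycle markers and p53 targets, with 1 row per gene group, the number of genes in brackets, and siRNA 3488, siRNA 2600 and scrambled control points from top to bottom in each row. Member homologous recombination genes and cell cycle markers lie above all 3 controls in all 4 siRNA arrays, and member nucleotide excision repair genes lie between -0.02 and 0.06 in all 7 arrays.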

How the data were processed

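RNA of 7 cultures was measured on Affymetrix arrays. The authors' deposited values are 1 signal intensity per probe set and array, computed in GCOS 1.4 (per the submitters' processing notes), with no further settings given. The trimmed mean of each array was 500.0 (trim 2%), so arrays are already scaled, and no normalization was added. Signals were floored at 1 and taken to log2, 57 control probe sets were left out, and 18625 probe sets, the upper 60% by mean signal, were tested with limma 3.58.1 in R 4.3.3 (lmFit, eBayes with an intensity trend, Benjamini-Hochberg). A fit of 3 groups gave each siRNA against control and the difference between them, and a fit of 2 groups gave the pooled comparison. Called means an adjusted p under 0.05. Intervals cover the spread between these 7 cultures, whose number limits precision.

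The members and all gene lists were chosen with earlier results of these data known. Signals of every array are given for the 5 member probe sets with the lowest p in each comparison and for Fancd2, Brca1, Chek1, Chek2, Atr, Parp1 and Rad21; other member signals were added after their values were seen. The brightest probe set stands for a gene in gene counts. Promoter words were chosen after the data were seen. Of 31042 probe sets, 20826 had 1 symbol, 436 several and 9780 none in the platform annotation. Each fit was tested on simulated data in which 200 of 18625 probe sets had a known change. For siRNA 3488 against control 40% of 1.5-fold, 72% of 2-fold and 92% of 3-fold changes were recovered, and for siRNA 2600 30%, 60% and 92%. Each share rests on 50 simulated probe sets, and the gaps between the siRNAs were not tested. With siRNA 3488 far more probe sets were called (2911) than were changed in the simulation, so recovery there can differ. Alternatives were other scalings, filters, floors, variance models and groupings, a replicate block, and leaving out each array.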

Additional observations from a re-analysis of the deposited data

Results flagged for a closer look

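Of the members and of the called further repair genes, 6 were singled out because they differed between the siRNAs by limma's test. The log2 difference, siRNA 3488 minus siRNA 2600, was 0.89 for Apex2 (adjusted p = 0.0134), -0.45 for Xrcc6 (0.0440), -0.85 for Brcc3 (0.00464), 0.72 for Babam1 (0.00434), -0.62 for Pms1 (0.0199) and -0.39 for Rmi1 (0.0471).

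In 6 further members both arrays of one siRNA lay above the control mean and both arrays of the other below it, with a difference that did not pass the threshold. With so few arrays this pattern can arise by chance. How often it arose over all tested genes was not counted, so no excess can be read from these 6. Lower with siRNA 3488 were Xrcc5 (-0.43, adjusted p = 0.0999), Rad50 (-0.41, 0.140), Ercc2 (-0.45, 0.288) and Chek2 (-0.18, 0.509). Higher with siRNA 3488 were Ddb2 (0.24, 0.203) and Xrcc1 (0.24, 0.207). These values are of the brightest probe set. The dimmer probe sets of Ddb2 and Xrcc5 went the other way, at -0.31 (adjusted p = 0.428) and 0.03 (0.954).

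Taking the 4 siRNA arrays together, 1 array stood apart from the other 3 in 2 genes, as chance gives in about 1 of 20 genes. Fancl read 732 in array 1 of siRNA 2600, and Xpa read 707 in array 1 of siRNA 3488.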

How the results depend on the processing

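For siRNA 3488 against control, 2911 probe sets were called; the count was 1834 with quantile normalization, 1939 with cyclic loess, 591 without the intensity trend, and 474 to 3611 on leaving out 1 array. The 6 members became 3 with no filter, 2 without the trend, 3 with the replicate block, and 1 to 9 on leaving out 1 array. For siRNA 2600 against control, 192 were called; the count was 91 with no filter, 0 without the trend (2585 at an unadjusted p under 0.05 in limma), 67 with the block, and 25 to 231 on leaving out 1 array. The 2 members became 1 with no filter, 0 without the trend, 1 with the block, 1 with the compared groups alone and 1 on leaving out any array. For the difference, 1119 were called; the count was 573 with quantile, 695 with loess, 727 with median centring, 459 with no filter, 5 without the trend, 29 with the compared groups alone, and 95 to 1562 on leaving out 1 array. The 2 members became 1 with quantile, loess, median centring or no filter, 0 without the trend or with the compared groups alone, and 1 to 4 on leaving out 1 array. For the pooled comparison, 27 were called; the count was 50 with quantile, 66 with median centring, 0 with no filter, without the trend or with the block (limma gave 3929, 2995 and 2107 at an unadjusted p below 0.05), 1378 as the mean of the 2 siRNA effects, and 0 to 1304 on leaving out 1 array. The 1 member became 0 with no filter, without the trend or with the block, 4 as the mean effect, and 0 to 3 on leaving out 1 array. The cause was not tested.

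The replicate numbers were not treated as pairing the arrays: same-number deviations correlated at -0.0483 to 0.163. With the replicate block 3 members were called with siRNA 3488 and 1 with siRNA 2600. Over 11 called member results and 185 alternatives, 111 stayed called, 74 lost the call and 0 changed sign; over 15 called results of the further repair genes, whose alternatives were chosen after seeing the data, 190 of 253 stayed called and 63 did not. Among 39 uncalled results, 38 alternatives in 16 changed sign, none with a change above 0.107. Gained calls were 1 among these 39 (Apex2 pooled, adjusted p = 0.0143 as the mean effect) and 5 among the 10 uncalled results with the lowest p: Brca2 and Lig4 pooled (0.0404 and 0.0405 as the mean effect) and the Msh6 difference, with the upper 40% of probe sets (0.0494), the block (0.00847) or without array 2 of siRNA 2600 (0.0318). Low signals limit the dimmest probe set of Rad50 and that of Adamts16.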

Other observations

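Brcc3 and Babam1 encode subunits of the BRCA1-A complex, which removes ubiquitin chains at DNA breaks, and they were low with different siRNAs. Brcc3 read 648 and 592 in siRNA 3488 cells and 1137 and 1092 in siRNA 2600 cells, against 1135, 1011 and 1136 in control cells. Babam1 has 2 probe sets, and only the brighter is given here. That probe set read 1213 and 1246 in siRNA 3488 cells and 757 and 737 in siRNA 2600 cells, against 1169, 1175 and 1131 in control cells. For each gene the low pair lay below the other 5 arrays without overlap. The difference, siRNA 3488 minus siRNA 2600, was -0.85 for Brcc3 (adjusted p = 0.00464) and 0.72 for Babam1 (adjusted p = 0.00434). Both differences held without any 1 array, and both missed the threshold without the intensity trend (adjusted p = 0.0590 and 0.0578).

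Ube2t, the conjugating enzyme that works with Fancl, read 454 and 484 in siRNA 3488 cells and 687 and 599 in siRNA 2600 cells, against 394, 419 and 374 in control cells. All 4 siRNA arrays lay above the controls. Its difference between the siRNAs was -0.45 (adjusted p = 0.0502).

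Pms1, a mismatch repair protein, read 441 and 525 in siRNA 3488 cells and 783 and 696 in siRNA 2600 cells, against 573, 602 and 617 in control cells. The controls lay between the siRNA groups, which differed by -0.62 (adjusted p = 0.0199). That call was lost without array 1 or 2 of siRNA 3488 or array 1 of siRNA 2600 (adjusted p up to 0.107), without the intensity trend and with the compared groups alone.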
